A study of Mus musculus with 16 samples.

Results

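A set of 7 B cell genes, Cd79a, Cd79b, Ms4a1, Ighm, Igkc, Ebf1 and Pax5, was followed through the cells of the left ventricle of a mouse model of pressure overload. Of these, 6 had a row among the 36950 genes of the deposited matrix, and Ebf1 was not analysed here. The genes were chosen by name, as genes of the B lineage, and not by a threshold on measured values. The question was how many of the 606 cells that the authors annotated T, of 11492 cells in all, hold these genes together, in which of the 5 T subclusters, at which stages, and how this compares with the other annotated types.

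The 16 mice were males of a series on transverse aortic constriction (TAC). In this model a band around the aorta raises the pressure against which the left ventricle works. The labels assign each animal a stage in weeks: 0w (2 mice), 2w (2 mice), 5w (7 mice), 8w (3 mice) or 11w (2 mice). They name no strain, age or sham operation, and do not say whether the 0w mice had surgery. Ventricle slices were digested with protease and collagenase to enrich myocytes or with papain to enrich the other cells, so the makeup of the captured cells is not that of the tissue. The annotated types other than T were cardiomyocytes (CM, 5656 cells), endothelial cells (EC, 1858), fibroblasts (FB, 1775), macrophages (MP, 1413) and GN (181), which is spelled out nowhere in the labels.

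A B cell recognises antigen with a membrane immunoglobulin, made of 2 heavy and 2 light chains, which cannot signal by itself. It is held by the Cd79a and Cd79b proteins, whose tails carry the signal into the cell. A newly made B cell carries the mu heavy chain, and its light chain is either kappa or lambda. The transcription factor Pax5 keeps a cell in the B lineage, and Ms4a1, known as CD20, is a membrane protein of mature B cells that is lost in plasma cells. B cells of the mouse heart are mostly found within its vessels, so a digest of the ventricle can hold cells of the blood.

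In the GENCODE annotation of GRCm38 (mm10), Cd79a lies at chr7:24897381-24902197 on the plus strand and Cd79b at chr11:106311341-106314762 on the minus strand. Ms4a1 lies at chr19:11249675-11266241 and Pax5 at chr4:44524757-44710487, both on the minus strand. The heavy chain mu constant gene Ighm lies at chr12:113418558-113422730 on the minus strand, and the kappa constant gene Igkc at chr6:70726435-70726966 on the plus strand. Promoter windows were at hand for 2 of the 6 measured members. That of Cd79a is shown because this member was detected in subcluster T3 and in 0 cells of T1 and T5, though also in 3 cells each of T2 and T4. The 134 bases before the gene's first annotated base are given 5′ to 3′ from the RefSeq table of GRCm38.p6, plus strand, chr7:24897247-24897380. The capitals mark the only match to the E-box CAGGTG, searched on both strands (reverse complement CACCTG).

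Cd79a promoter: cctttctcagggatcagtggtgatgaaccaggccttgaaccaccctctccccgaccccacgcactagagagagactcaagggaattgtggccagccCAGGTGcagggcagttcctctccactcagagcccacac

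Of 32851 RefSeq promoter windows of this length, 9.75% held CAGGTG on either strand, and 0.843% held the octamer ATGCAAAT, a known element of immunoglobulin promoters, which had no match in the Cd79a window. These matches describe letters only.

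Cells annotated T had a median of 14766 unique molecular identifiers (UMIs, counts of tagged RNA molecules) outside the 34 mitochondrially encoded genes, which took 50.6% of their UMIs. The number of T cells per mouse ran from 1 to 180, and 0 cell names were shared between mice. Shares below are given with 95% exact binomial intervals, which cover counting error only and treat cells as independent. Depth differed between cells, so shares were also taken after thinning each cell to 2000 non-mitochondrial UMIs, which left out 9 T cells.

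The members were held together in a block of T cells. Of 606 cells annotated T, 401 held a UMI of none of the 6 measured members, 98 held 1, 39 held 2, 34 held 3, 24 held 4, 7 held 5 and 3 held all 6. Thus 68 cells, or 11.2% (interval 8.82% to 14.01%), held 3 or more, and every one of the 16 mice gave at least 1 of them. Thinned cells gave 31 of 597, or 5.19% (3.56% to 7.29%). In the other types, 3 or more members were held by 5 of 5656 CM (0.0884%), 11 of 1858 EC (0.592%), 9 of 1775 FB (0.507%), 8 of 1413 MP (0.566%) and 3 of 181 GN (1.66%). Median depths were 14766 non-mitochondrial UMIs for T, 12469 for CM, 17110 for EC, 18335 for FB, 22286 for MP and 11756 for GN, so T cells were not deeper than most of these types.

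Subcluster T3 held 62 of the 68 cells, a share of 91.2% (81.8% to 96.7%). These were 42.2% (34.1% to 50.6%) of its 147 cells. T2 held 4 such cells among 137, T4 held 2 among 90, and T1 and T5 held 0 among 196 and 36, which allows shares of up to 1.86% and 9.74%. T3 was not the deepest subcluster, with a median of 12463 non-mitochondrial UMIs against 17266 in T1, 13417 in T2, 12426 in T4 and 21847 in T5. After thinning, 29 of 143 T3 cells (20.3%) still held 3 or more members, and 1 cell each remained in T2 and T4. The authors' subclusters were made from the same counts, so the difference between subclusters is a description and no test of it is given.

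**Figure D1:**
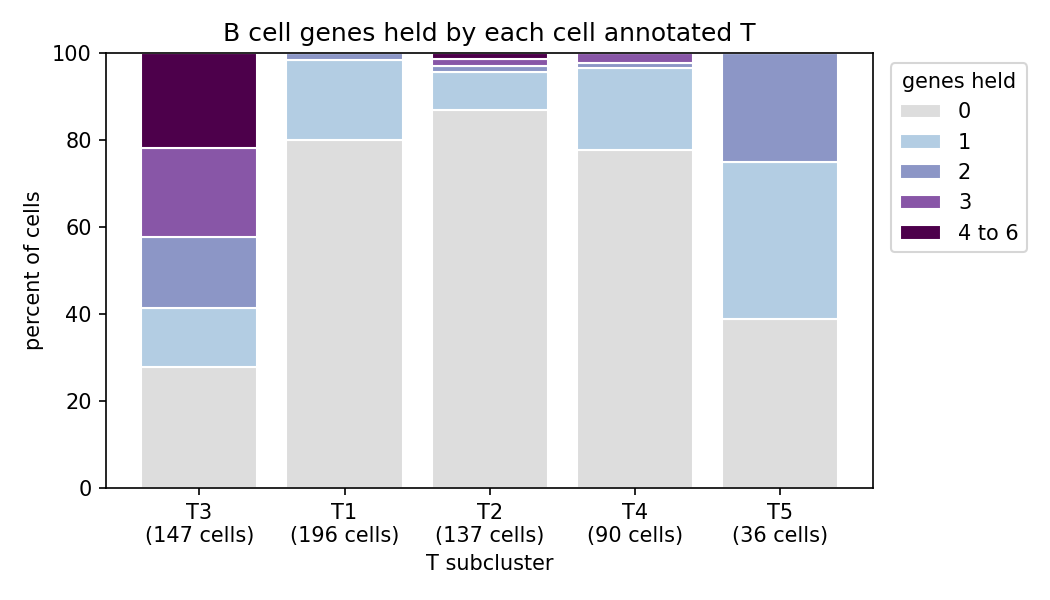
Bars stack the percent of cells (y axis, 0 to 100) of each T subcluster (x axis, with cell numbers) by how many of the 6 measured B cell genes a cell held with at least 1 UMI. T3 is the bar with large dark parts, 42.2% of its cells holding 3 or more, while T1 and T5 have no cell above 2.

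Of the signalling pair, Cd79a was the narrower gene. It was detected in 52 of 147 T3 cells (35.4%), in 0 of 196 T1 cells, 3 of 137 T2 cells, 3 of 90 T4 cells and 0 of 36 T5 cells. Outside T it was found in 0.141% of CM, 0.700% of EC, 0.958% of FB, 0.495% of MP and 0 of 181 GN. Its partner Cd79b was found in 22.4% of T3 cells, 3.06% of T1, 1.46% of T2, 5.56% of T4 and 8.33% of T5 cells, and in 0.566% to 4.25% of the other types, with MP highest. Few cells held both partners: 16 of the 58 T cells with Cd79a also held Cd79b (27.6%), against 33 of 548 without it (6.02%).

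Ms4a1 was detected in 40 T3 cells (27.2%) and in 1.53% to 2.92% of the other T subclusters, against 0.477% to 1.66% of the other types. Pax5, the lineage factor, was the least often detected member, in 22 T3 cells (15.0%), in 0.510% to 2.78% of the other T subclusters and in 0% to 0.845% of the other types. Of the 28 T cells with Pax5, 25 held Igkc (89.3%) and 18 held Cd79a (64.3%), against 91 of 578 (15.7%) and 40 of 578 (6.92%) of the T cells without it.

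The immunoglobulin genes were the most often detected members. Igkc was found in 92 T3 cells (62.6%), against 3.06% in T1, 4.38% in T2, 5.56% in T4 and 19.4% in T5, and in 1.75% of CM, 3.34% of EC, 4.28% of FB, 3.54% of MP and 10.5% of GN. T3 cells that had it carried a median of 20.5 Igkc UMIs, against a median of 1 UMI in the positive cells of T1, T4 and T5 and 2.5 UMIs in those of T2. Of the 58 T cells with Cd79a, 51 held Igkc (87.9%), against 65 of 548 without (11.9%). Ighm was the least restricted member, found in 60 T3 cells (40.8%) but also in 19 of 36 T5 cells (52.8%) and in 8.76% to 13.3% of T1, T2 and T4 cells. After thinning, the Ighm share was 24.5% in T3 and 13.9% in T5, so the order of these subclusters turned with depth.

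**Figure D2:**
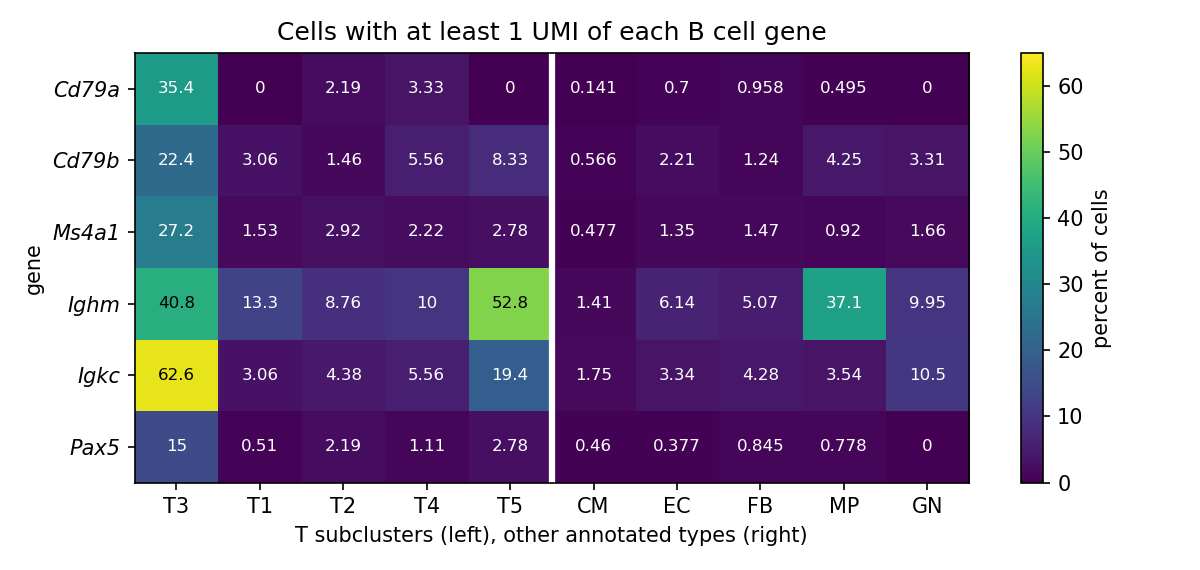
The colour and the printed number give the percent of cells with at least 1 UMI of each gene (rows) in the T subclusters, T3 first, and in the other annotated types (columns), without thinning. T3 has the highest share of every gene but Ighm, which reaches 52.8% in T5 and 37.1% in MP.

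The label T was checked against the T cell receptor complex. Cd3d, Cd3e and Cd3g encode the signalling chains of that complex, and Trac, Trbc1 and Trbc2 its constant regions. At least 1 UMI of these 6 genes was found in 40 of 147 T3 cells (27.2%, 20.2% to 35.2%), against 388 of 459 cells of T1, T2, T4 and T5 (84.5%, 80.9% to 87.7%). The same measure gave 5.55% of CM, 14.8% of FB, 16.4% of MP and 17.8% of EC, types that should lack the complex, and 25.4% of GN. For T3 the annotation therefore goes against its markers, and the subcluster is called by its number here. The genes B cells are known by were held by part of T3 only, since 41 of its 147 cells held no member. Of these 41 cells, 19 held a T cell receptor complex gene (46.3%).

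Within T cells, those with 3 or more members differed from those with at most 1 in genes that had no part in the split. The comparison was made within the 9 mice that gave at least 3 cells of each kind, as the share of cells per mouse, and it was added after the data had been seen. T cell receptor complex genes were found in 12.9 ± 20.1% of cells with 3 or more members and in 70.7 ± 25.7% of cells with at most 1 (SD, n = 9 mice). The share was lower in 9 of 9 mice, and in 6 of them it was 0% in the cells with 3 or more members. An exact sign-flip test over the mice, two-sided, gave p = 0.00391, adjusted p = 0.00391 over 3 measures, the smallest value that 9 mice allow. The lists were chosen with earlier results of these data known. The p-values of the 3 measures are therefore no independent support. Each sits at its floor because all 9 differences of its measure had the same sign, and it does not measure their spread. For the receptor complex genes the differences ran from -92.3 to -14.3 percentage points. Pooled over all mice, 13 of 68 cells with 3 or more members (19.1%) and 400 of 499 cells with at most 1 (80.2%) held such a gene, at median depths of 16041 and 14610 non-mitochondrial UMIs. The first share was above those of CM, FB, MP and EC and below that of GN. Its interval, 10.6% to 30.5%, covers the shares of FB, MP, EC and GN and lies above that of CM.

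Other genes of the B lineage went the other way. At least 3 of 29 measured genes of this kind, among them the inhibitory receptor Cd22 and the BAFF receptor Tnfrsf13c, were held by 77.0 ± 17.02% of cells with 3 or more members and by 10.2 ± 7.31% of cells with at most 1 (SD, n = 9 mice). This share was higher in 9 of 9 mice, and the 2 groups of values did not overlap. The MHC class II pathway presents peptides to helper T cells, and B cells share it with macrophages. At least 3 of 8 MHC class II genes of this pathway were held by 84.4 ± 17.4% of cells with 3 or more members and by 25.5 ± 20.3% of cells with at most 1. This share too was higher in 9 of 9 mice. The cells compared sit in different subclusters, since T3 held 62 of the 68 cells with 3 or more members, and 41 of the cells with none and 20 of those with 1. Within T3, class II genes summed to 13319 CPM in cells with 3 or more members and 15272 CPM in cells with none. The other T subclusters had 335.4 CPM, so T3 cells with no member had a high class II level too. They held a mean of 2.44 class II genes a cell, against 4.03 in T3 cells with 3 or more members. The B lineage and class II differences within mice both had p = 0.00391 by the same exact test, adjusted p = 0.00391, again the smallest possible.

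**Figure D3:**
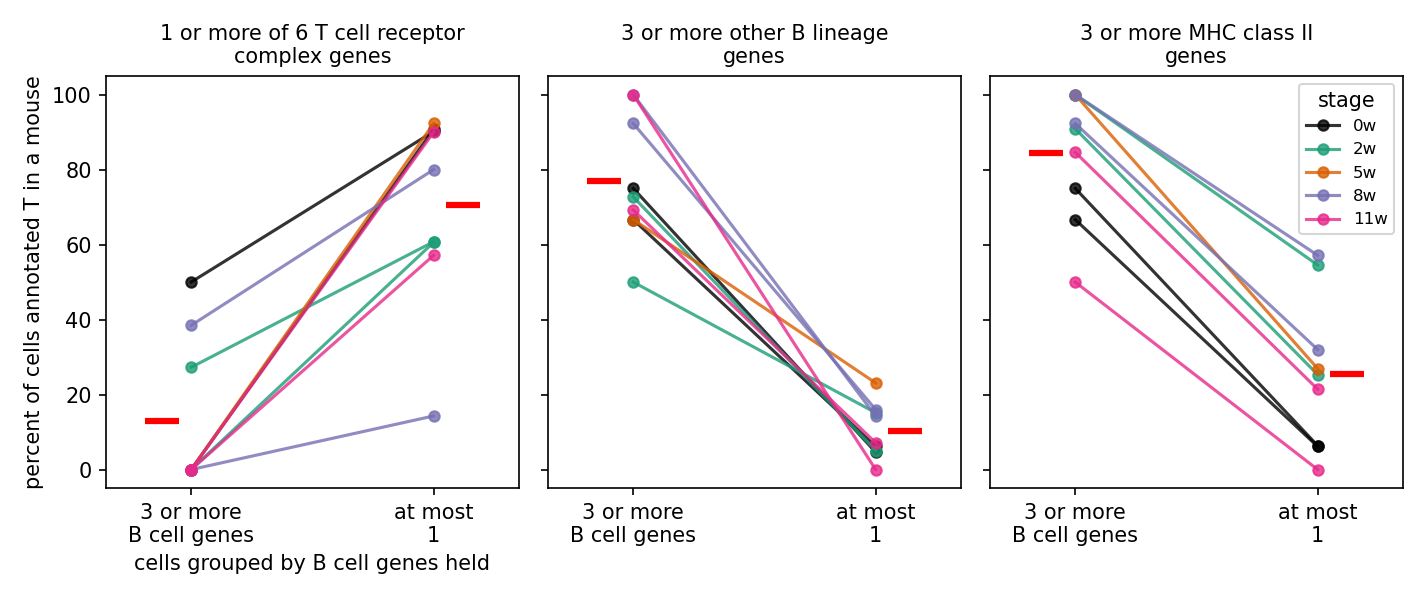
Each line is 1 of 9 mice, coloured by stage, and joins the percent of its T cells (y axis) with the genes named above each panel in cells holding 3 or more B cell genes (left) and at most 1 (right); red bars are the means over mice. The lines go up for T cell receptor complex genes (means 12.9% and 70.7%) and down for other B lineage genes (77.0% and 10.2%) and MHC class II genes (84.4% and 25.5%).

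Some single genes of these lists show the same split cell by cell, and exceptions by summed counts are given below. Cd22 was found in 14 of the 68 cells with 3 or more members and in 4 of the 499 with at most 1. Faim3, an older symbol of the receptor for the Fc part of IgM, was found in 21 of 68 and 2 of 499 cells, and Ly6d, a surface protein that marks early and mature B cells, in 41 of 68 and 64 of 499. The class II genes H2-Aa, H2-Ab1 and H2-Eb1 were found in 62, 65 and 56 of the 68 cells, and in 178, 262 and 124 of the 499. Of the T cell genes, Trbc2 was found in 6 of 68 and 323 of 499 cells, Trbc1 in 3 of 68 and 249 of 499, and Cd3g in 4 of 68 and 166 of 499.

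Markers of other heart cell types were spread over both kinds of T cell. At least 1 of 7 cardiomyocyte markers was found in 94.1% of cells with 3 or more members and 97.0% of cells with at most 1, at 6525 and 13384 CPM (counts scaled to a fixed library size, here of non-mitochondrial UMIs). The shares were 86.8% and 90.2% for 7 fibroblast markers, 77.9% and 82.0% for 7 endothelial markers, and 75.0% and 82.6% for 8 macrophage markers. Natural killer markers, 11 in number, were found in 4.41% and 29.1%. Summed levels were 999 and 575 CPM for the macrophage markers. Within T3 these markers had 888 CPM in cells with 3 or more members and 2365 CPM in cells with none. The other T subclusters had 457 CPM. Class II genes could follow the macrophage markers, whose part in the class II result was not tested. No doublets were removed here.

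Light and heavy chains were read in the 68 cells with 3 or more members. Igkc was found in 64 of them and the lambda constant gene Iglc2 in 35, with both in 33, Iglc2 alone in 2 and neither in 2. Among the 33 cells with both, Igkc exceeded Iglc2 at least 10 times in 4, the reverse held in 2, and in 27 neither did. Their medians were 21 Igkc UMIs and 15 Iglc2 UMIs, and in the 499 cells with at most 1 member Iglc2 was found in 18. Ighm was found in 51 cells, and a switched heavy chain gene (Ighg2b, Ighg2c or Igha among those measured) in 3, each of which also held Ighm. Of 8 genes of B cell precursors, at least 1 was found in 16.2% of the 68 cells, against 52.9% of the 499 cells with at most 1 member. In the 68 cells Rag1, Rag2, Vpreb1 and Vpreb2 had 0 UMIs, which allows a share of cells with a UMI of up to 5.28% each, and Dntt and Igll1 had 1 UMI each. Cd93, a membrane protein also known from endothelial and myeloid cells, was found in 7 of the 68 (67 UMIs), and Il7r, a cytokine receptor chain that T cells also carry, in 3 (367 UMIs). In the 499 cells with at most 1 member, Cd93 was found in 83 and Il7r in 34, and Rag1, a recombinase gene of developing B and T cells, in 142 (28.5%) and Dntt in 82 (16.4%).

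The genes most like the block were ranked by the Jaccard index over the 606 T cells, the number of cells with both the gene and 3 or more members divided by the number with either. Iglc2 came first (0.354), followed by the class II chaperone subunit H2-DMb2 (0.326), Faim3 (0.280), Ly6d (0.279), H2-Eb1 (0.269), the invariant chain Cd74 (0.242), H2-Aa (0.228), Gm19980 (0.218), Shisa5 (0.206) and Scd1 (0.206). Of the 28 T cells with Faim3, 21 held 3 or more members (75.0%), and of the 219 with Cd74, 56 did (25.6%). The index is a description over cells of the same libraries.

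The same comparison was made gene by gene with summed counts. Only 3 mice, 2w replicate 2, 8w replicate 1 and 11w replicate 2, gave at least 5 cells of each kind, and edgeR's quasi-likelihood test with mouse as a block was run on 4414 genes, the members left out. It called 1 gene at adjusted p under 0.05, 0.0227% of those tested. This gene was Ccl5, a chemokine of cytotoxic and memory T cells. Its level was 5.62, 3.32 and 0 CPM in cells with 3 or more members of the 3 mice, against 4571, 690.9 and 1854 CPM in their cells with at most 1. These CPM were scaled by edgeR to library sizes that include mitochondrial UMIs. The groups were far apart, with a log2 fold change of -9.27 ± 0.96 (SE) and an adjusted p of 0.00104 by edgeR.

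No gene of the lists passed edgeR's threshold at this size, against 0% of genes called higher and 0.0227% called lower in all. Of 11 tested genes of the other B lineage list, 0 were called, 5 had an unadjusted p under 0.05, all higher, and 10 had a positive fold change, with a median log2 value of 4.64. Over the T cell markers, 0 of 11 were called, 8 had an unadjusted p under 0.05, all lower, and 1 of the 11 had a positive fold change. Their median was -5.96, or -5.20 with genes at 0 UMIs set to their bound. MHC class II genes had a median of 1.49 with 7 of 7 positive, and 0 of 7 called. The median over all 4414 genes was -0.64. DESeq2 gave an adjusted p to 3900 of the 4414 genes and called 34 higher and 90 lower, 124 in all. Among them were 5 of the 11 B lineage genes and 1 of the 7 class II genes, higher, and 7 of the 11 T cell markers, lower. In edgeR, 195 of the 4414 genes had an unadjusted p under 0.05, 41 of them higher and 154 lower.

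By counts, Tnfrsf13c had 329 UMIs in cells with 3 or more members and 1 in cells with at most 1 in these 3 mice, Faim3 241 and 39, Bank1, an adaptor of B cell receptor signalling, 63 and 4, and the tetraspanin Cd37 373 and 97. Ly6d had 2863 and 2237 UMIs, a log2 fold change of 1.91 ± 0.80 (SE). Among T cell genes, Trbc2 had 11 and 3924 UMIs (log2 fold change -7.87 ± 1.47, adjusted p = 0.119 in edgeR), the CD8 chain Cd8b1 had 5 and 929, and Cd3g 54 and 1718. The T lineage factor Bcl11b had 0 and 537 UMIs, at least 52.6-fold lower with a floor of 3 UMIs over the group, and Cd247, a further signalling chain of the receptor, 0 and 234, at least 22.9-fold lower. Tcf7, another T lineage factor, had 9 and 603. Against these directions, the T cell marker Cd2 had 320 and 209 UMIs (log2 fold change 1.84 ± 2.00, SE). The B lineage gene Irf8 had 62 and 277 (-0.97 ± 2.04, SE). All of these stood at an adjusted p above 0.05 in edgeR. With the 9 mice that gave at least 3 cells of each kind, a choice added after seeing the data, edgeR tested 1973 genes and called 15, among them 4 of 6 T cell markers lower, 3 of 5 class II genes higher and 0 of 2 other B lineage genes.

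The share of T cells with 3 or more members was then followed over the stages, in the 11 mice with at least 10 T cells. The 0w mice had 4.35% and 2.22%, and the 2w mice 10.0% and 11.5%. The 5w mice had 10.3%, 5.26% and 7.69%. The 8w mice had 31.7% and 23.1%, and the 11w mice 14.8% and 28.3%. Among these 11, the 0w mice were below every other mouse, and the 8w and 11w mice were above every earlier mouse. The 5 mice left out for few T cells had 1 of 4, 2 of 6, 1 of 1 and 1 of 3 such cells at 5w and 2 of 6 at 8w, so the 5w mice with few T cells lay above those with many. The mean was 3.29 ± 1.503% for 0w, 10.7 ± 1.03% for 2w, 7.77 ± 2.54% for 5w (n = 3), 27.4 ± 6.10% for 8w and 21.5 ± 9.51% for 11w (SD, n = 2 for stages other than 5w). An exact permutation test of the spread between stages over all 415800 arrangements gave p = 0.0202, adjusted p = 0.0404 over 2 shares.

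This call was fragile. It was lost, with adjusted p-values from 0.0550 to 0.125 by the exact permutation test, without any 1 of the 9 mice of 0w to 8w. It stayed without 11w replicate 1 or 2 (0.0171 and 0.00429). It was also lost with at least 2 members (0.0695), with at least 4 (0.394) and with mice of at least 20 T cells (0.197), and it stayed after thinning (0.0186), where the mean of 8w and 11w minus 0w was 9.64 percentage points, against 21.2 without thinning.

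The share among T cells also depends on its denominator, which differed widely. The 0w mice gave 7 such cells among 249 T cells, 2w 15 of 136, 5w 6 of 74, 8w 16 of 54 and 11w 17 of 73. Taken among all annotated cells but CM in all 16 mice, cells of any type with 3 or more members made up 0.884 ± 0.462% of these cells in the 0w mice, 2.22 ± 1.14% in 2w, 3.25 ± 1.56% in 5w (n = 7), 2.03 ± 1.09% in 8w (n = 3) and 1.62 ± 1.03% in 11w mice (SD, n = 2 where not given). These values overlapped between stages and did not pass the test (permutation p = 0.221 with 100000 permutations, adjusted p = 0.221). A higher share among T cells therefore does not tell more cells with the members from fewer other T cells.

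**Figure D4:**
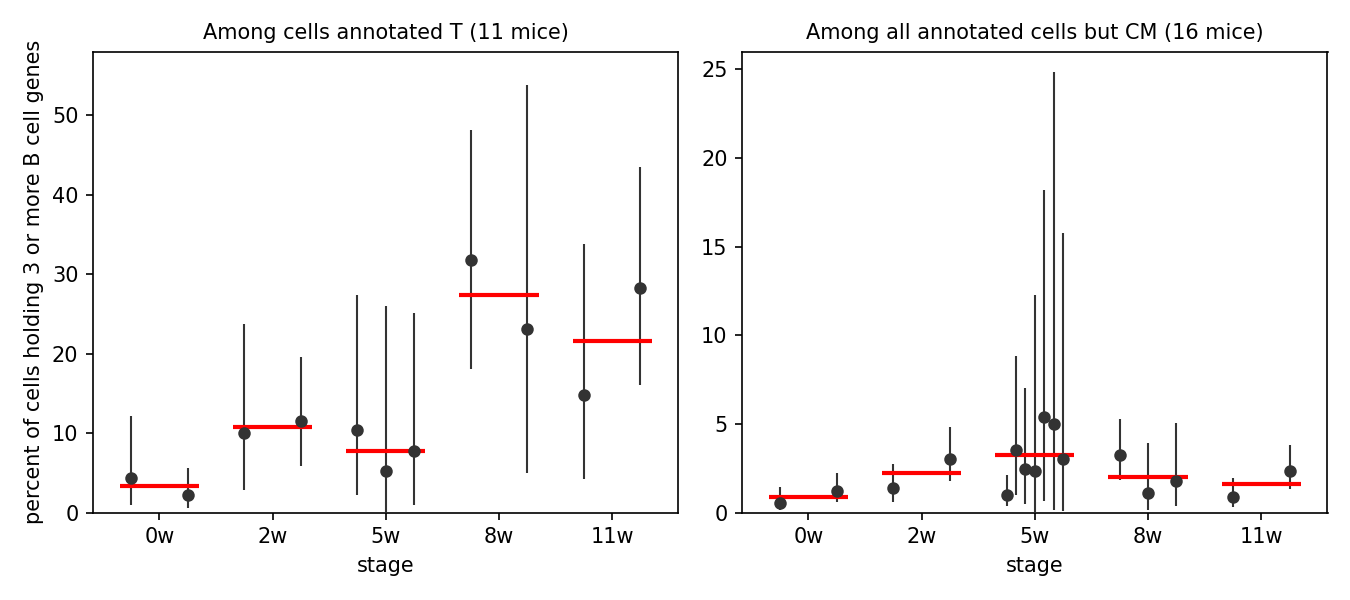
Points are mice, with 95% exact binomial intervals, and red lines are stage means; the y axes give the percent of cells with 3 or more B cell genes among T cells (left) and among all annotated cells but CM (right, a different scale). On the left the 8w and 11w mice, at 14.8% to 31.7%, lie above the rest, and on the right the stages overlap.

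Plates differed too. The cells came from 12 plates, and T cells of 2 stages met on 1 of them only. There, 13 of 41 T cells of 8w replicate 1 (31.7%, 18.1% to 48.1%) and 3 of 29 of 5w replicate 1 (10.3%, 2.19% to 27.4%) held 3 or more members. At 2w, cells of the same 2 mice gave 15 of 107 on 1 plate and 0 of 29 on the other. Elsewhere stage and plate cannot be told apart. The authors' annotation also gives each cell 1 of 2 groups, API and PI, which it does not explain, and the share was 13.2% of 273 T cells in API and 9.61% of 333 in PI.

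The edgeR fit of T cell sums over the same 11 mice tested 12109 genes and all 6 members. Set against 0w, it called 0 genes (0%) for 2w, 8 (0.0661%) for 5w, 0 (0%) for 8w and 0 (0%) for 11w. For 8w and 11w averaged and set against 5w it called 30 (0.248%), of which 16 were higher (0.132%). The members called were 0 of 6 in each of these 5 contrasts. Members with an unadjusted p under 0.05 numbered 0 for 2w, 3 for 5w, 3 for 8w, 0 for 11w and 5 for the last contrast, against 836, 937, 1128, 845 and 1954 of the 12109 genes. Their directions were mixed: at 5w Cd79b was lower (log2 fold change -5.17) and Ighm and Igkc higher, and in the last contrast Ighm was lower (-3.99) and the other 4 higher. DESeq2, run on the same 12109 genes, gave no adjusted p to Igkc and Ighm in any of the 5 contrasts, so it could not call them. It called Cd79b lower for 5w against 0w, among 95 genes called. For the last contrast it called Cd79a, Cd79b, Ms4a1 and Pax5 higher, among 534. These 2 contrasts share the 5w mice.

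Cd79b came nearest in edgeR. Levels of the T cell sums, here and below, are CPM scaled by edgeR to library sizes that include mitochondrial UMIs. Cd79b stood at 47.0 and 42.0 CPM in the 0w mice, 69.5 and 60.5 CPM in the 2w mice and 2.41, 0 and 0.909 CPM in the 5w mice. It had 148 and 51.4 CPM in the 8w mice and 83.5 and 37.6 CPM in the 11w mice. Among the mice of the fit, the 5w mice were below all others. The log2 fold change for 8w and 11w against 5w was 5.97 ± 1.36 (SE), adjusted p = 0.0600 in edgeR. Ms4a1 followed, with 122 and 543 CPM in the 8w mice and 55.7 and 183.5 CPM in the 11w mice, set against 20.9, 0 and 9.99 CPM in the 5w mice, and a log2 fold change of 4.25 ± 1.21 (SE), adjusted p = 0.185 in edgeR. Cd79a stood at 44.6 and 54.7 CPM in the 8w mice and 21.7 and 45.1 CPM in the 11w mice, set against 9.23, 3.43 and 1.82 CPM in the 5w mice. Pax5 stood at 53.2 and 6.43 CPM in the 8w mice and 6.19 and 18.25 CPM in the 11w mice. In the 5w mice it had 0.401, 0.686 and 0.909 CPM. For these genes the 8w and 11w mice of the fit did not overlap with its 5w mice. How many of all 12109 tested genes separate in this way was not counted, so the separation is a description only. The mice left out for few T cells did not keep this separation. In 5w replicates 4, 5, 6 and 7, Cd79b had 0, 8, 0 and 80 UMIs, against 0 in 8w replicate 2. Ms4a1 had 0, 2, 0 and 8 UMIs in those 5w mice, against 0 in 8w replicate 2. Cd79a had 16, 0, 1 and 0, against 28, and Pax5 had 1, 0, 0 and 0, against 14.

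Other settings of edgeR called some members. For 8w and 11w against 5w, the adjusted p of Cd79b was 0.0429 with RLE factors, 0.0258 with no low-count filter and 0.011 with the replicate block. Leaving out each mouse gave 0.0197 to 0.225, under 0.05 without either mouse of 0w, either of 2w or 8w replicate 3. Ms4a1 had 0.0356 with no filter and 0.011 with the block, and 0.0233 to 0.501 without each mouse, under 0.05 without either mouse of 0w or 2w. Ighm, lower in this contrast, had 0.00126 with no filter and 0.0329 without 5w replicate 1, while without 5w replicate 3 its log2 fold change was 1.34. Igkc at 5w against 0w had 0.0122 with no filter, and its log2 fold change of 4.35 became 0.0024 without 5w replicate 3.

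These sums rest on few cells. In 0w replicate 1, 1 cell carried 96.2% of the Cd79b UMIs, 82.2% of the Ms4a1 UMIs and 91.6% of the Igkc UMIs. At 5w, Ighm reached 2778 CPM in replicate 3, against 16.9 and 35.7 CPM in replicates 1 and 2, and a single cell carried nearly all of it. The log2 fold change of Ighm at 5w against 0w was 4.06 ± 1.65 (SE, adjusted p = 0.588 in edgeR), and it was -1.17 without that mouse.

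That cell and one other stood out by their immunoglobulin load. The T3 cell of 5w replicate 3 held 3015 Ighm and 3241 Igkc UMIs, 39.4% of its non-mitochondrial UMIs, with 1106 UMIs of Igj, the joining chain of secreted IgM and IgA, and 36 of Prdm1, a factor of plasma cells. It held 2 Cd79a UMIs and none of Cd79b, Ms4a1 or Pax5. The T5 cell of 5w replicate 7 held 3265 Igkc and 0 Ighm UMIs, 779 of Igj, 131 of Mzb1, a chaperone of antibody secretion, and 17 of Sdc1, the plasma cell surface marker known as CD138. It held 11 Cd79b UMIs and none of the other members but Igkc. These 2 cells were chosen after their values were seen.

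Ighm stood apart from the other members outside T. It was found in 525 of 1413 macrophages (37.2%, 34.6% to 39.7%), against 9.94% of GN, 6.14% of EC, 5.07% of FB and 1.41% of CM. Thinned to equal depth, the shares were 13.98% of MP, 2.86% of GN, 1.20% of EC, 1.08% of FB and 0.402% of CM. Of the 525 macrophages, 448 held no other member (85.3%), and 29 held Igkc (5.52%). Of the 126 T cells with Ighm, 61 held Igkc (48.4%). Summed UMIs gave 25.9 Ighm per Igkc in macrophages, against 0.415 in T, 0.746 in EC, 0.898 in FB, 2.30 in CM and 2.42 in GN, so the ratio of the 2 genes was not the same in all types.

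The share of macrophages with Ighm was above that of EC and FB together in each of the 16 mice, and in 14 of 16 after thinning. Per mouse it ran from 9.09% to 53.3% with a median of 31.9% in MP, against 0% to 33.3% with a median of 4.72% in EC and FB. It ran over the 9 macrophage subclusters from 16.7% of MP2 to 18 of 30 cells of MP9. The mouse with the highest EC and FB share, 5w replicate 3 (33.3% for Ighm and 25.9% for Igkc), was the one with the T3 cell of 3015 Ighm UMIs. Its neighbour on the same plate, 5w replicate 2, was second, with 16.7% for Ighm and 19.4% for Igkc in EC and FB, and the part of free RNA in these shares was not tested. The annotated types were made from the same counts, so no test between them is given.

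**Figure D5:**
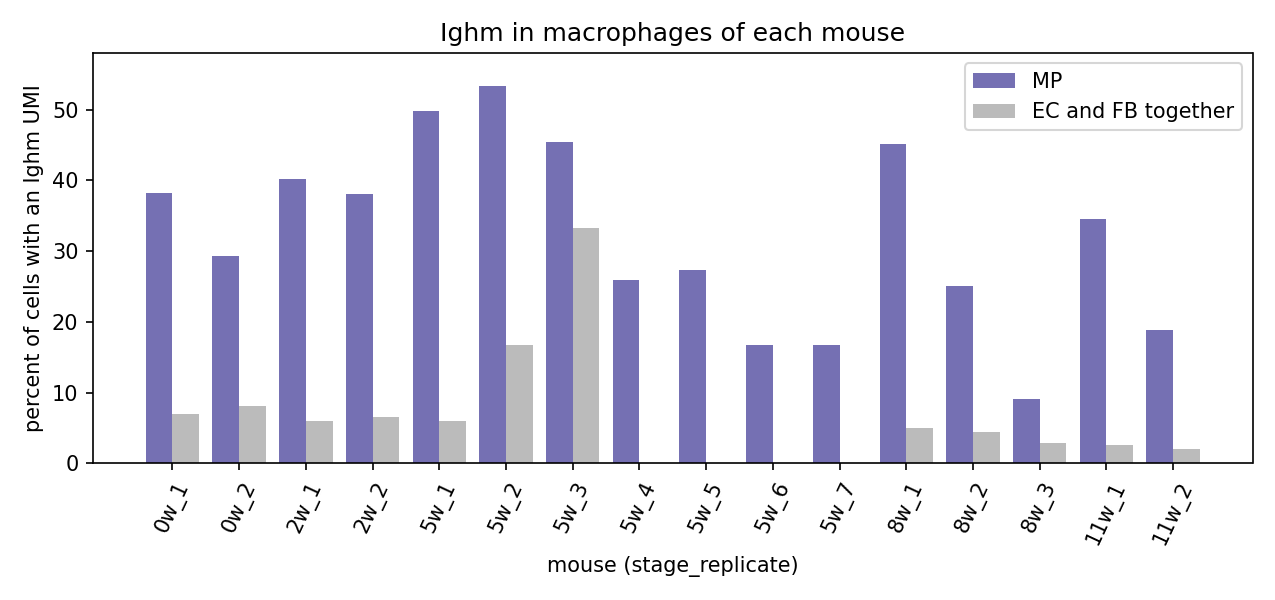
Bars give the percent of macrophages (MP, left of each pair) and of EC and FB cells together (right) with at least 1 Ighm UMI in each mouse (x axis, stage and replicate), without thinning. The MP bar is the higher one in each of the 16 mice, and 5w replicate 3 has the highest EC and FB bar, at 33.3%.

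The 36 cells of other types with 3 or more members mostly kept the markers of their own type. All 5 CM and all 9 FB cells held at least 3 markers of that type, as did 10 of 11 EC and 7 of 8 MP cells. By neutrophil markers, taken for GN by assumption, 2 of 3 GN cells did. These 36 cells were deep, with medians of 94744 non-mitochondrial UMIs in CM, 23657 in EC, 45478 in FB, 78885 in MP and 69722 in GN. Thinning left 1 CM, 2 EC, 3 FB, 1 MP and 0 GN cells with 3 or more. Of the 68 T cells with 3 or more members, 7 held at least 3 of 20 T cell markers. Of all 104 typed cells with 3 or more members, 65.4% were annotated T.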

How the data were processed

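The submitters deposited raw UMI counts, a whole number for each gene in each cell, and an annotation of each cell's mouse, plate, type and subcluster, used as deposited. STAR 2.5.2b, featureCounts and Subread 1.4.6-p1 and the builds mm10 and GRCh37 are named, without roles, per the submitters' processing notes. How genes were annotated, strand was used and UMIs collapsed is not given in the sources used here, so overlapping or near-identical immunoglobulin genes may share reads. Totals without mitochondrial genes equalled the authors' deposited UMI count in 93.2% of T cells.

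A cell held a gene with at least 1 UMI. Cells were not filtered or called for doublets. Cells are not replicates: counts were summed per mouse and fitted with edgeR 4.0.16 (filterByExpr, TMM, robust quasi-likelihood, two-sided, Benjamini-Hochberg) in R 4.3.3, with DESeq2 1.42.0 as an alternative. Shares per mouse were tested by permutation over mice with scipy 1.17.1, pandas 2.3.3 and numpy 2.4.6 under Python 3.11.15. Fits were tested on simulated data. The mice are separate animals per the labels. Named genes were the members, called genes whose average log2 CPM reached 5, up to 6 genes of the B lineage and T cell lists with the smallest p, and the 10 most alike genes by Jaccard index; other list genes were named after their values were seen. A gene that this rule names is not reported here. The members and lists were chosen with earlier results of these data known. Ebf1 and the lambda genes other than Iglc2 were not analysed here.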

Additional observations from a re-analysis of the deposited data

Results flagged for a closer look

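In 8w replicate 3, 1 of 7 T cells with at most 1 member held a T cell receptor complex gene, a share of 14.3% that stood far below the 57.1% to 92.3% of the other 8 mice in that comparison. The same mouse had 0 of 3 such cells among those with 3 or more members, so its difference, -14.3 percentage points, was the smallest of the 9. The criterion for such a gap, Dixon's 95% critical value, is by its construction met by chance in about 1 of 20 groups. Without this mouse the mean difference was -63.3 points, and it was lower in the 8 others.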

How the results depend on the processing

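Differences within mice kept their direction under every setting run. Leaving out each mouse gave -63.3 to -53.5 points for T cell receptor complex genes. For other B lineage genes it gave 62.6 to 70.8 points, and for class II genes 57.1 to 60.8. The exact sign-flip p was 0.00781 each time, the smallest 8 mice allow. This p is no independent support, since the lists were chosen with earlier results of these data known. Cells with 0 members as the comparison gave -59.4, 68.7 and 60.7 points. The stage share, 8w and 11w minus 0w, was 21.2 points; it was 9.64 after thinning, still past the threshold; it was 32.7 with at least 2 members, 7.73 with at least 4 and 23.3 with at least 20 T cells a mouse, each no longer past the threshold, and 17.8 to 24.5 without each mouse (adjusted p 0.00429 to 0.125 by exact permutation). Where leaving out a mouse leaves a stage with 1, that mouse is assumed to vary like the other stages. Leaving out Ebf1 equals the analysis as made.

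Counts of genes called over the 5 stage contrasts (2w, 5w, 8w and 11w against 0w, then 8w and 11w against 5w) were 0, 8, 0, 0 and 30. DESeq2 gave 76, 95, 155, 16 and 534; no low-count filter 5, 42, 14, 1 and 71; and RLE factors 0 at 5w. Leaving out mitochondrial genes gave 4 at 5w and 11 in the last. At least 20 T cells a mouse gave 16, 38, 7 and 6 in the first 4. The replicate block gave 10, 34, 4, 4 and 77; the numbers do not pair the mice, since deviations of same-numbered mice correlated at -0.0202 to 0.0597. Without each mouse the counts ran over 0 to 2, 0 to 37, 0 to 42, 0 to 0 and 9 to 69. For the T cells with 3 or more members the count of 1 became 3 with RLE factors, 8 with no filter, 124 with DESeq2, 4 against cells with 0 members, 2 when split by Cd79a, Cd79b and Ms4a1, 15 with at least 3 cells of each kind, and 5 to 9 without each mouse; it stayed 1 with no replicate block.

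Uncalled members changed sign. Cd79a at 5w against 0w was 0.15 with RLE factors, 0.023 with no filter, 0.18 with DESeq2, 0.20 with the replicate block and 0.15 (0.145) with at least 20 T cells, against -0.04. Ighm at 11w against 0w was 0.25, 0.046 and 0.24 with RLE factors, no filter and DESeq2 and 0.039 without mitochondrial genes, against -0.03. With the replicate block Ighm was -0.26 at 5w and -0.57 at 8w, and Igkc 1.75 for 8w and 11w against 5w. Ly6d was -0.81 when cells were split by Cd79a, Cd79b and Ms4a1. Without each mouse, the log2 values ran over -0.0375 to 2.70 (Cd79a, 2w), -1.01 to 1.77 (Cd79a, 5w), -0.29 to 1.04 (Cd79b, 11w), -1.17 to 4.60 (Ighm, 5w), -1.25 to 0.57 (Ighm, 11w), -0.66 to 3.40 (Ms4a1, 2w), -3.15 to 0.67 (Ms4a1, 5w) and -0.80 to 3.85 (Pax5, 2w), and for 8w and 11w against 5w over -4.48 to 1.34 (Ighm) and -1.58 to 3.37 (Igkc). The cause was not tested.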
